A study of Phoxinus septimaniae with 18 samples.

Results

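The 150 genes described here are those with the highest liver level among genes with a much higher mean level in liver than in brain and in gills. They were sought in invasive minnows (Phoxinus septimaniae x P. dragarum) of the Llobregat River. Each carried a zebrafish protein as its first hit and no transmembrane tag, and had a mean level in liver at least 20 times that in brain and in gills. Genes that rose at least 3-fold in step with the most abundant liver transcripts were left out by the rule. Of 14896 genes in the liver table, 573 met the rule, and the 150 highest were taken. The measured levels in all 3 tissues chose these genes, so their enrichment in liver is a description and is given without a test. The working name of the list calls its genes steady across fish. The livers went against that word, and the list is called here the liver-enriched genes.

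The fish were wild minnows caught close to a potash mine, at the salt station with 18.1 ppt, or at a reference station upstream, where the water was less saline. Brain, gills and liver were sequenced as bulk tissue in 3 libraries per station and tissue, 18 in all, and the labels call them biological replicates. The study asked which responses of the tissues go with a saline habitat. Station and salinity coincide, so they cannot be told apart. The labels give no age, and no agent was applied. All the fish belong to the same hybrid minnow, so every hit is a match to a protein of another species. Brain and liver libraries with the same station and number carry the same fish code, which the numbering of the gill libraries does not follow. In each station, part of the gill libraries come from fish with no brain or liver library. In the reference gills, the codes of these fish end in a different letter from those of all other reference fish.

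The liver makes and secretes most proteins of the blood plasma, among them carriers of lipids, metals and hormones, clotting factors and complement. It also holds the enzymes of sugar, amino acid and bile acid metabolism and of detoxification. Genes for such products are typically abundant in liver and scarce elsewhere. In cyprinid fish, exocrine pancreatic tissue can run through the liver, so a liver sample may hold both. The annotation gives protein accessions and no gene names. None of 78 symbols of hepatocyte, pancreas, blood cell, yolk, complement and metabolic genes was found among the tags (0 matches). The labelled tissue therefore could not be checked against named markers, and each gene is given by its zebrafish accession and its assembled gene without a function.

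Liver counts were dominated by transcripts whose first hit is ENSDARP00000050237. They took 28.9% of the counts in liver reference 1, 40.9%, 42.6% and 33.2% in the 3 salt livers, and under 0.001% in liver reference 2 and reference 3. Levels are therefore given as CPM, counts scaled to a library total of 1000000 outside that hit. These totals ran from 12741834 to 33034278 per liver, from 23678725 to 28731252 per brain and from 15200774 to 24222245 per gill library. CPM is not corrected for transcript length, so an order of genes by CPM is not an order of molecule numbers. The gill library labelled salt 3 went against its label: over 10588 transcripts, its transcript shares within genes correlated with those of brain and liver reference 1 (r = 0.64 and 0.57) and not with those of brain and liver salt 1, which carry its fish code (r = -0.07 and -0.08). Every gill value given for salt 3, and every mean, range or test over the gill libraries, includes this library. Gill reference 1 carries the fish code of brain and liver reference 1. Its transcript shares were not compared with theirs, so its label is unchecked.

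The mean liver level of the 150 genes ran from 95.3 to 43238 CPM, with a median of 393 CPM. Brain listed 58 of them and gills 46, and 77 were in neither table. Every transcript listed in a table reached 1 CPM in 2 or more of the 6 libraries of that tissue. A gene missing from a table may hold reads below that limit, and the rule counts it as 0. The tissues were deposited in separate tables, so levels of liver, brain and gills are set side by side across tables. The gene nearest the tissue limit from inside was ENSDARP00000051732 (TRINITY_DN21_c0_g1), with 1559 CPM in liver and 77.6 CPM in brain, a ratio of 20.1. The nearest outside, among genes with at least 95.3 CPM in liver, was ENSDARP00000102718 (TRINITY_DN1233_c2_g1), with a ratio of 18.3. At the end of the list, the last gene taken, ENSDARP00000017354 (TRINITY_DN13448_c0_g1), had 95.3 CPM in liver and the next, ENSDARP00000070384 (TRINITY_DN15260_c0_g1), had 94.0 CPM.

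Among liver-enriched genes at or above the level of the last gene taken, the limit on a rise fell in a wide gap. Genes below that level were not searched. ENSDARP00000015328 (TRINITY_DN20340_c0_g2) was the closest inside, with a rise of 2.74-fold from the higher of liver reference 2 and 3 to the lowest of the other 4 livers. The closest outside was TRINITY_DN18332_c1_g1, a gene of the dominant hit itself, with 57.2-fold. The genes removed by this limit numbered 50. Of these, 21 were at or above the level of the last gene taken, and 7 of the 21 listed the dominant hit first.

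The 150 genes listed 122 distinct first hits. Hits shared by 2 or more genes were 16, and they covered 44 genes. ENSDARP00000023011 was the first hit of 10 assembled genes, with mean liver levels from 106 to 2417 CPM, and ENSDARP00000063124 of 4, from 234 to 10846 CPM. Assembled genes with the same hit may be copies, alleles or fragments, and reads could be split between them, so the level of a single one is uncertain. Summed over all transcripts of a hit, 119 of the 122 hits kept a ratio of at least 20, and 3 did not. A signal peptide tag stood on 124 of the 150 genes, or 82.7%. The other 6817 liver genes with a zebrafish first hit and no transmembrane tag carried it in 88.7% of cases, and the 395 of them at or above the level of the last gene taken in 93.4%. The tag was thus at least as common on other liver genes, and it does not mark the list as secreted.

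**Figure D1:**
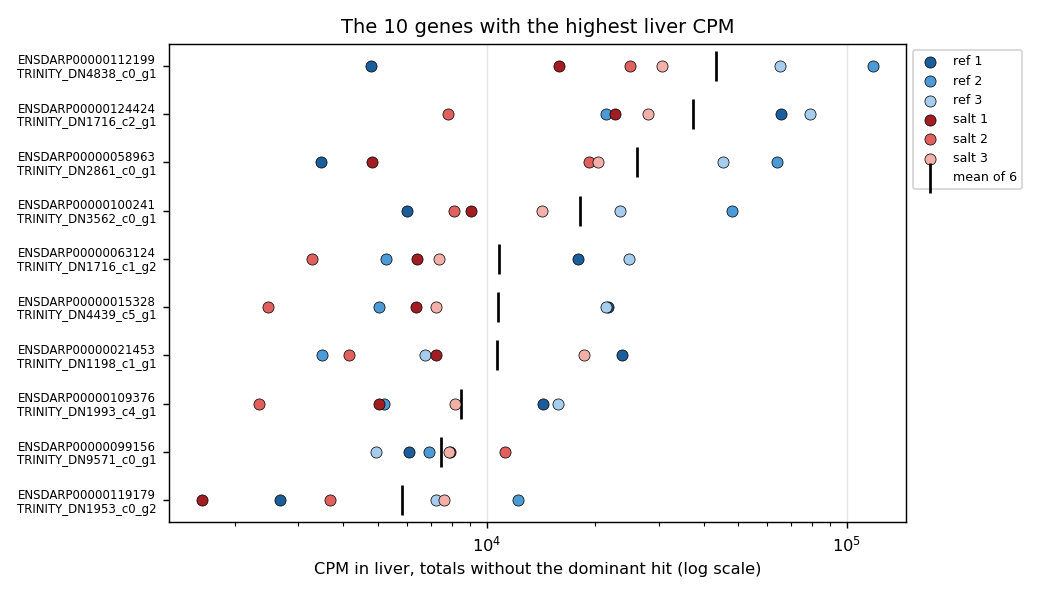
CPM (log scale) of the 10 liver-enriched genes with the highest mean level, with 1 point for each of the 6 livers and a bar at the mean. The first gene spans 4766 to 118026 CPM within the reference livers, and ENSDARP00000099156 spans the least, 4927 to 11270 CPM.

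The highest level belonged to ENSDARP00000112199 (TRINITY_DN4838_c0_g1). It stood at 4766, 118026 and 65073 CPM in liver reference 1, 2 and 3, and at 15837, 24998 and 30729 CPM in liver salt 1, 2 and 3. The 3 salt livers lay between the lowest and the second reference liver, so the stations overlapped. On the log2 scale, salt against reference livers differed by -1.08 (SE 1.32; edgeR adjusted p = 0.915).

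ENSDARP00000124424 (TRINITY_DN1716_c2_g1) had another order of livers. It was at 65423, 21412 and 79178 CPM in the reference livers and at 22671, 7795 and 28125 CPM in the salt livers. Liver reference 2, the highest for the first gene, was here the second lowest. The fitted log2 difference was -1.13 (SE 1.02; edgeR adjusted p = 0.882).

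ENSDARP00000058963 (TRINITY_DN2861_c0_g1) followed the first gene, with 3476, 63770 and 45254 CPM in reference and 4796, 19218 and 20331 CPM in salt livers. ENSDARP00000100241 (TRINITY_DN3562_c0_g1) did so too, with 6018, 47844 and 23410 CPM in reference and 9070, 8104 and 14206 CPM in salt livers. In both, liver reference 1 was the lowest and liver reference 2 the highest. ENSDARP00000119179 (TRINITY_DN1953_c0_g2) was also highest in liver reference 2, with 2673, 12236 and 7233 CPM in reference, but lowest in liver salt 1, with 1628, 3679 and 7595 CPM in salt livers.

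A second set among the 10 followed ENSDARP00000124424. ENSDARP00000063124 (TRINITY_DN1716_c1_g2) was at 17932, 5259 and 24801 CPM in reference and 6404, 3282 and 7400 CPM in salt livers. ENSDARP00000015328 (TRINITY_DN4439_c5_g1) was at 21781, 5034 and 21487 CPM in reference and 6388, 2479 and 7258 CPM in salt livers. ENSDARP00000109376 (TRINITY_DN1993_c4_g1) was at 14349, 5203 and 15739 CPM in reference and 5026, 2335 and 8153 CPM in salt livers. Liver salt 2 was the lowest for each of them, and liver reference 1 and reference 3 the pair on top.

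The other two of the 10 differed from both sets. ENSDARP00000021453 (TRINITY_DN1198_c1_g1) was at 23713, 3496 and 6762 CPM in reference and 7258, 4154 and 18625 CPM in salt livers, high in 1 liver of each station. ENSDARP00000099156 (TRINITY_DN9571_c0_g1) was at 6077, 6935 and 4927 CPM in reference and 7906, 11270 and 7841 CPM in salt livers. Its stations did not overlap, and the mean was 9005 ± 1961 CPM (SD, n = 3) in salt against 5980 ± 1008 CPM in reference livers. Its log2 fold change of 0.89 (SE 0.61) had an edgeR adjusted p of 0.848.

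The liver-enriched genes varied widely between livers. The coefficient of variation over the 6 livers had a median of 0.667 and ran from 0.259 to 2.45. The median was 0.393 for the 693 other liver genes at or above the level of the last gene taken. The highest liver stood a median of 7.06 times above the lowest, against 2.92 times for those other genes. In 104 of the 150 genes, or 69.3%, the range passed 5-fold, against 27.6% of the others, and in 39 it passed 10-fold. In 149 it passed 2-fold. These comparisons carry no test, since the genes were chosen on the same livers.

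Much of this spread lay within the reference station. The highest and the lowest liver were both reference livers for 79 genes, and for 54 of these liver reference 2 was highest and reference 1 lowest. The median ratio of highest to lowest was 5.31 among the 3 reference livers and 2.59 among the 3 salt livers. The ratio of the station means had a median of 1.71-fold, and for 143 of 150 genes the range within the reference livers exceeded it. A range over single livers tends to exceed a ratio of means in any variable gene. The share over all liver genes was not taken, so no conclusion is drawn from that count. Liver reference 2 gave the highest value for 71 genes, reference 1 for 33 and reference 3 for 27, while liver salt 1, 2 and 3 gave it for 1, 7 and 11. Liver reference 1 gave the lowest value for 70 genes. These counts are on totals outside the dominant hit. Fitted on those totals, 75.2% of all liver genes had a log2 fold change below 0, against 56.0% with TMM, the trimmed mean normalization of edgeR. The counts were not repeated on the TMM scale or over all liver genes, so the scaling may hold part of them.

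**Figure D2:**
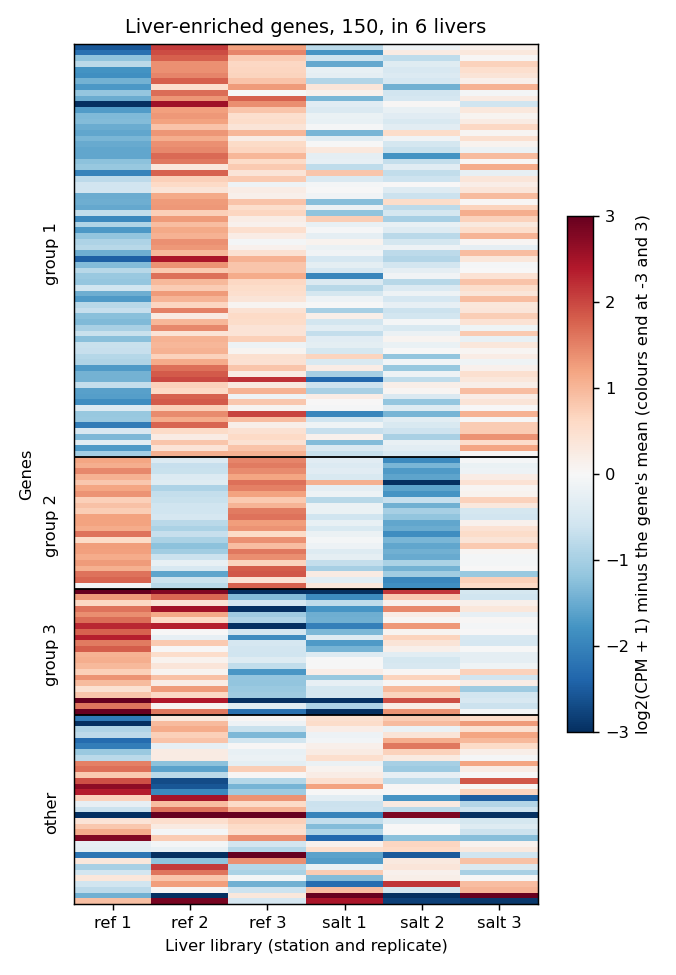
Level of each of the 150 liver-enriched genes (rows) in the 6 livers (columns), as log2(CPM + 1) minus the gene's mean, with red above and blue below it. Rows are ordered by group; group 1 (72 genes) is blue in liver ref 1 and red in ref 2, group 2 (23 genes) is blue in salt 2, and group 3 (22 genes) is red in ref 1 and blue in ref 3 and salt 1.

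The genes moved in a few sets rather than together. Genes were grouped by average linkage on 1 minus Pearson's r of log2(CPM + 1) over the 6 livers, at a distance of 0.4. The distance was chosen after the values were seen, and the groups carry no test. A high r within a group follows in part from that cut. Of 13 groups, the first 3 held 117 genes. The first 2 principal components of the same values took 38.3% and 30.2% of the variance. With 6 livers a correlation of single genes is loosely determined, and all the genes share the same libraries and depth.

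Group 1 held 72 genes with 59 hits, and the median r between its genes was 0.84. It includes ENSDARP00000112199, ENSDARP00000058963 and ENSDARP00000100241 (TRINITY_DN3562_c0_g1). Its genes together took 3.78%, 38.2% and 23.3% of the counts in the reference livers and 7.81%, 9.76% and 14.6% in the salt livers. Of the 72 genes, 58 were highest in liver reference 2 and 60 lowest in liver reference 1. Liver reference 1 is the reference liver that carries the dominant hit, and on this group it lay below all 3 salt livers, which carry it too.

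Group 2 held 23 genes with 16 hits, with a median r of 0.90, among them ENSDARP00000124424 and all 4 genes of ENSDARP00000063124. It took 15.98%, 4.91% and 18.96% of the counts in the reference livers and 5.92%, 2.30% and 7.39% in the salt livers. Liver salt 2 was lowest for 21 of the 23, and liver reference 3 highest for 17. In this group liver reference 1 stood beside reference 3, and reference 2 among the salt livers.

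Group 3 held 22 genes with 20 hits and a median r of 0.80. It took 5.36%, 4.38% and 0.75% of the counts in the reference livers and 0.69%, 2.68% and 1.52% in the salt livers. Liver reference 1 was highest for 18 of its genes. Its most abundant gene, ENSDARP00000080173 (TRINITY_DN969_c0_g1), was named after its values were seen. It stood at 14677, 7751 and 32.6 CPM in reference and at 146, 4955 and 783 CPM in salt livers, a range of 450-fold that ran across both stations.

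The grouping was repeated with library totals scaled by TMM, and again gave 13 groups. All 72 genes of group 1 stayed together in a group of 73, 22 of the 23 of group 2 in a group of 23, and all 22 of group 3 in a group of 24. On that scale the median r within the first group 1, 2 and 3 was 0.83, 0.87 and 0.84. Both scales use the same counts and differ only by a factor per liver, so the repeat is no independent support. Liver reference 2 was still highest and reference 1 lowest for the sum of group 1, and liver salt 2 lowest for that of group 2. The sum of group 2 was then highest in liver reference 1 rather than reference 3, and that of group 3 lowest in reference 3 rather than salt 1. The correlations between the median profiles were taken on the first scale, CPM on totals outside the dominant hit. They were -0.20 for group 1 and 2, -0.48 for group 1 and 3, and -0.03 for group 2 and 3.

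Of the 16 hits shared by 2 or more genes, 10 had all their genes in 1 group and 6 had genes in several. Of the 10 genes of ENSDARP00000023011, 9 were in group 1, and r between pairs had a median of 0.85 and ran from 0.06 to 0.99. The exception was TRINITY_DN831_c2_g5, named after its values were seen, with 0.465, 302 and 266 CPM in reference and 5.86, 189 and 1.79 CPM in salt livers. It was therefore close to 0 in 3 livers and abundant in 3 others, in both stations. The most abundant of the 10, TRINITY_DN3011_c0_g1, was at 758, 3846 and 2786 CPM in reference and 2099, 1725 and 3289 CPM in salt livers.

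The most variable gene was ENSDARP00000021632 (TRINITY_DN68515_c0_g1), with a coefficient of variation of 2.45. It stood at 9699 CPM in liver reference 3 and at 0.970, 0, 1.95, 0.549 and 4.87 CPM in liver reference 1, reference 2, salt 1, salt 2 and salt 3. The count of 0 in liver reference 2 allows up to 0.0908 CPM at 3 counts. The whole of its place on the list thus came from 1 liver. The brain of the same fish had 2.53 CPM, the lowest of the 6 brains, which ran up to 5.19 CPM, and the gill libraries ran from 20.1 to 90.1 CPM. In 5 of 6 livers the gene was below every gill library.

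ENSDARP00000100241 was also the first hit of a second gene, TRINITY_DN68823_c1_g1, at 4.70, 0.0605 and 18.8 CPM in reference and 219, 0 and 528 CPM in salt livers. It was high in 2 salt livers and had no count in the third, which allows up to 0.235 CPM. ENSDARP00000128749 (TRINITY_DN11200_c1_g1) was at 328, 113 and 7.13 CPM in reference and 1.87, 95.7 and 35.6 CPM in salt livers. ENSDARP00000015328 (TRINITY_DN20340_c0_g2) was at 1005, 25.3 and 58.3 CPM in reference and 363, 161 and 159 CPM in salt livers. In both of the latter, liver reference 1 was the highest and the stations overlapped.

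The least variable genes stayed within narrower ranges. ENSDARP00000041992 (TRINITY_DN2877_c7_g1) was at 509, 993 and 882 CPM in reference and 755, 584 and 974 CPM in salt livers, a range of 1.95-fold. ENSDARP00000012808 (TRINITY_DN4716_c3_g1) was at 622, 1410 and 840 CPM in reference and 885, 931 and 1060 CPM in salt livers. ENSDARP00000119169 (TRINITY_DN3907_c4_g1) was at 105, 234 and 150 CPM in reference and 139, 108 and 143 CPM in salt livers. In CPM all 3 kept liver reference 1 lowest and reference 2 highest, the order of group 1, on a smaller scale. TMM totals stood above these totals by factors from 1.14 in liver salt 3 to 1.75 in liver reference 3. An order within so narrow a range therefore depends on the scaling, and on the TMM scale ENSDARP00000041992 was highest in liver salt 3. ENSDARP00000002199 (TRINITY_DN4307_c0_g2) was at 52.3, 110 and 82.1 CPM in reference and 132, 112 and 90.6 CPM in salt livers, with a log2 difference of 0.74 (SE 0.36; edgeR adjusted p = 0.783).

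**Figure D3:**
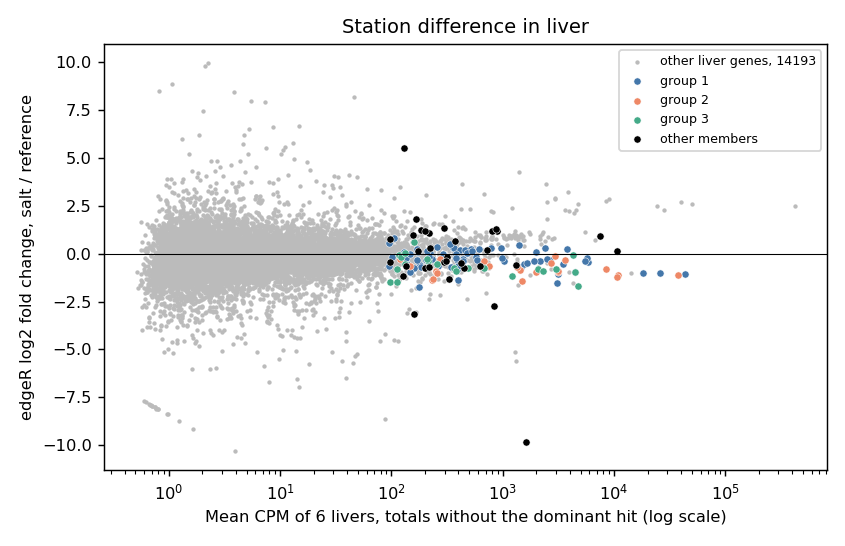
edgeR log2 fold change of salt against reference liver on the vertical axis against mean CPM of the 6 livers (log scale) for 14343 liver genes, with the 150 liver-enriched genes in colour by group. The genes of groups 1 to 3 lie mostly below 0, with a median over all 150 of -0.39, and those farthest from 0 belong to the other members.

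Between the stations, edgeR's quasi-likelihood test called 0 of the 150 liver-enriched genes, and 0 (0%) of 14343 liver genes. At an unadjusted p under 0.05 there were 7 of the 150, or 4.67%, beside 6.39% of all liver genes. DESeq2 called 3 of the 150, or 2.00%, beside 1.44% of all. Leaving out liver reference 2 moved the counts most: edgeR then had 19 of the 150, or 12.7%, at an unadjusted p under 0.05 beside 7.57% of all genes, and DESeq2 called 13, or 8.67%, beside 2.78%. Without liver reference 1 these were 18, or 12.0%, beside 10.4%, and 9, or 6.0%, beside 5.55%. Without liver reference 3 or any single salt liver, edgeR had 3 or 4, or 2.0% to 2.67%, beside 4.39% to 5.72% of all genes. DESeq2 called 1, or 0.67%, without liver salt 3, beside 1.07%. The rule used the same livers, so these counts are not independent of it. The labels do not say how fish were sampled within a station, and p-values measure the spread between these libraries only.

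The log2 fold change was below 0 for 107 of the 150 genes and above 0 for 43. Its median was -0.39, against -0.09 over all liver genes. The scaling moved both: with totals outside the dominant hit and no further factors, the medians were -0.68 and -0.40. Relative to all genes the list stood at -0.30 with TMM and at -0.28 without factors. Without liver reference 2, the median of the list was 0.16 with TMM, so its sign rested on that liver. The rule removed genes that rise from liver reference 2 and 3 to the other livers, so it also set part of this direction.

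The CPM of the stations did not overlap for 9 of the 150 genes. In 4, or 2.67%, the salt livers were higher, beside 3.17% of all liver genes. In 5, or 3.33%, the reference livers were higher, beside 14.8% of all. On the TMM scale the counts were 5 and 4 of the 150, beside 7.01% and 6.92% of all liver genes. On either scale the shares were below those over all genes, though the CPM share with salt livers higher was close to its background. The rule ranked genes on these same livers and removed genes that rise with the most abundant liver transcripts. The shares are therefore not independent of the rule, above all those with salt livers higher, and no conclusion is drawn from them.

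Among the genes lower at the salt station, ENSDARP00000047194 (TRINITY_DN9267_c1_g1) was at 542, 135 and 207 CPM in reference and 14.5, 32.2 and 31.9 CPM in salt livers. Every salt liver was below every reference liver, with a wide gap. Its log2 fold change was -3.16 (SE 0.69; edgeR adjusted p = 0.709), and DESeq2 called it (adjusted p = 0.00105), also without each liver in turn. ENSDARP00000014852 (TRINITY_DN3695_c0_g1) was at 725, 2551 and 1139 CPM in reference and 362, 131 and 80.2 CPM in salt livers. Its log2 fold change was -2.73 (SE 0.78; edgeR adjusted p = 0.736), and DESeq2 called it (adjusted p = 0.0182), but not without liver reference 2, salt 2 or salt 3 (adjusted p = 0.0978, 0.109 and 0.123).

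Of the other 3 with reference livers higher, ENSDARP00000072127 (TRINITY_DN15480_c0_g1) was at 2605, 795 and 3491 CPM in reference and 750, 497 and 759 CPM in salt livers, where liver reference 2 nearly met the salt livers. On the TMM scale, which divides liver reference 2 by 1.37 and liver salt 3 by 1.14, its stations overlapped. ENSDARP00000126835 (TRINITY_DN384_c3_g1) had the tightest stations, at 558, 601 and 685 CPM in reference and 257, 322 and 291 CPM in salt livers. On the log2 scale it differed by -0.76 (SE 0.30; edgeR adjusted p = 0.760). ENSDARP00000109993 (TRINITY_DN968_c6_g1) was at 346, 238 and 294 CPM in reference and 78.6, 197 and 150 CPM in salt livers.

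Among those higher at the salt station, ENSDARP00000092246 (TRINITY_DN6817_c2_g2) was at 615, 646 and 422 CPM in reference and 1073, 1140 and 928 CPM in salt livers. Its log2 fold change was 1.18 (SE 0.40; edgeR adjusted p = 0.754), and DESeq2 called it (adjusted p = 0.0328), but not without liver salt 1, 2 or 3 (adjusted p = 0.102, 0.149 and 0.130). ENSDARP00000128432 (TRINITY_DN6408_c0_g1) was at 30.0, 109 and 133 CPM in reference and 143, 388 and 192 CPM in salt livers, with neighbouring values close between the stations. ENSDARP00000024817 (TRINITY_DN1610_c0_g1) was at 173, 942 and 774 CPM in reference and 1047, 1268 and 1085 CPM in salt livers.

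**Figure D4:**
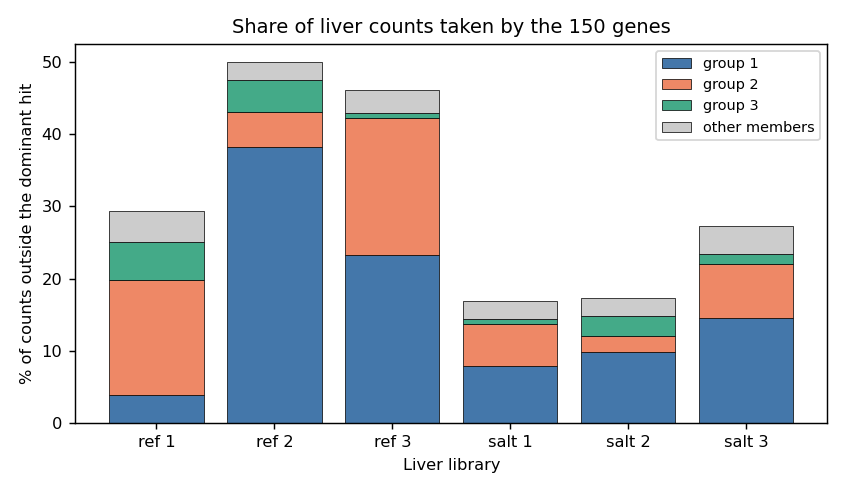
Summed counts of the 150 liver-enriched genes as a percentage of counts outside the dominant hit (bars, from 0), stacked by group, in each of the 6 livers. The 3 reference livers reach 29.3%, 50.03% and 46.2% with different make-up, and the salt livers 16.9%, 17.3% and 27.2%.

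Summed over the list, the genes took 29.3%, 50.03% and 46.2% of the counts outside the dominant hit in the reference livers and 16.9%, 17.3% and 27.2% in the salt livers. The stations did not overlap, and the mean was 20.5% ± 5.85 (SD, n = 3) in salt against 41.8% ± 11.02 in reference livers, a ratio of 0.490. This is a description without a test, since the rule ranked the genes on the same livers and removed genes that rise from liver reference 2 and 3 to the others. In bulk tissue, fewer liver cells and less of these transcripts per cell cannot be told apart. On the TMM scale the sums were 202301, 366202 and 263895 CPM in reference and 127526, 146219 and 238563 CPM in salt livers, and the stations overlapped, with a ratio of 0.615. On full totals the ratio was 0.326. The difference in the sum therefore depended on the scaling. The 2 livers almost without the dominant hit had the highest sums on the first scale, and liver reference 1, which carries it, was close to liver salt 3; the part of the dominant hit in this result was not tested. Without the 10 highest genes the ratio on the first scale was 0.573.

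In brain, 55 of the 58 genes listed there passed edgeR's filter on low counts, and 0 were called, beside 0 (0%) of 26930 brain genes. At an unadjusted p under 0.05 there were 2, or 3.64%, beside 6.41% of all brain genes, and DESeq2 called 0 of the 55 beside 1.31%. In gills, 41 of 46 passed the filter and 0 were called, beside 0 (0%) of 22958 gill genes. At an unadjusted p under 0.05 there were 2, or 4.88%, beside 1.05% of all gill genes, and DESeq2 called 0 of the 41 beside 0% of all. The edgeR shares were 4.55% beside 3.43% without gill reference 1, and 8.89% beside 3.22% without the library labelled salt 3. Without both they were 4.65% beside 3.15%. Only genes with some counts in a tissue could pass these filters.

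The 2 in brain were low. ENSDARP00000020541 (TRINITY_DN10136_c0_g1) was at 0.333, 0.495 and 0.0844 CPM in reference and 3.83, 1.18 and 2.17 CPM in salt brains, a log2 difference of 2.91 (SE 0.77; edgeR adjusted p = 0.655). Only its salt brains reached the 1 CPM of every listed transcript, so the listing partly fixed this contrast. ENSDARP00000091102 (TRINITY_DN62582_c0_g1) was at 2.52, 0.701 and 2.20 CPM in reference and 0.696, 0.549 and 0.859 CPM in salt brains, which overlapped. Here only brain reference 1 and 3 reached 1 CPM, so the listing partly fixed this contrast too. In gills, ENSDARP00000102718 (TRINITY_DN4747_c0_g1) was at 2.94, 1.05 and 0.745 CPM in reference and 15.2, 19.6 and 3.19 CPM in salt libraries. The lowest of these 3, barely above gill reference 1, was the library labelled salt 3. The log2 difference was 2.94 (SE 0.87; edgeR adjusted p = 1.000).

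The sum of the list in brain was 404, 268 and 304 CPM in reference and 325, 447 and 252 CPM in salt libraries. The mean was 341 ± 98.2 CPM (SD, n = 3) in salt against 325 ± 70.4 CPM in reference brains (exact two-sided permutation test, p = 0.8). In gills the sum was 312, 344 and 355 CPM in reference and 352, 585 and 302 CPM in salt libraries. The mean was 413 ± 151 CPM in salt against 337 ± 22.3 CPM in reference gills (n = 3; exact two-sided permutation test, p = 0.8). The stations overlapped in both tissues. Gill salt 2 was the highest gill library, and its fish has no brain or liver library. Without gill salt 2 the ratio of salt to reference was 0.970 in place of 1.23. Without the library labelled salt 3 it was 1.39.

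The traces of the most abundant liver genes in brain were uneven. Of the 10 highest genes, 9 were in the brain table, and all 9 were highest in brain salt 2. Together the 9 took 28.04, 3.71 and 18.6 CPM in reference and 3.38, 90.5 and 4.75 CPM in salt brains. ENSDARP00000112199 (TRINITY_DN4838_c0_g1) was at 8.81, 0.577 and 4.47 CPM in reference and 0.626, 23.2 and 0.573 CPM in salt brains. Liver salt 2, of the same fish as brain salt 2, was not the liver with most of this gene. That order does not bear on where the traces came from, and their source was not tested.

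The genes with the highest levels outside liver behaved otherwise. ENSDARP00000051732 (TRINITY_DN21_c0_g1) was at 99.1, 61.3 and 82.6 CPM in reference and 80.9, 74.8 and 66.9 CPM in salt brains. In gills it was at 58.8, 49.1 and 53.1 CPM in reference and 52.6, 47.3 and 58.7 CPM in salt libraries. In liver it ran from 312 CPM in salt 2 to 3524 CPM in reference 2, a wider range than in either other tissue.

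TRINITY_DN3011_c0_g1 of ENSDARP00000023011 was at 47.4, 30.7 and 37.7 CPM in reference and 49.0, 43.4 and 30.7 CPM in salt brains. In gills it was at 19.9, 19.5 and 19.1 CPM in reference and 21.2, 102 and 21.02 CPM in salt libraries, so that gill salt 2 stood apart from the other 5. ENSDARP00000037689 (TRINITY_DN2033_c1_g1) was at 13.7, 59.7 and 17.5 CPM in reference and 25.6, 42.7 and 29.3 CPM in salt brains. Reference 2 was its highest brain and, with 9145 CPM, its highest liver. ENSDARP00000040421 (TRINITY_DN6813_c0_g1) was at 64.8, 66.6 and 26.0 CPM in reference and 39.9, 58.8 and 45.5 CPM in salt gill libraries, without an order by station.

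**Figure D5:**
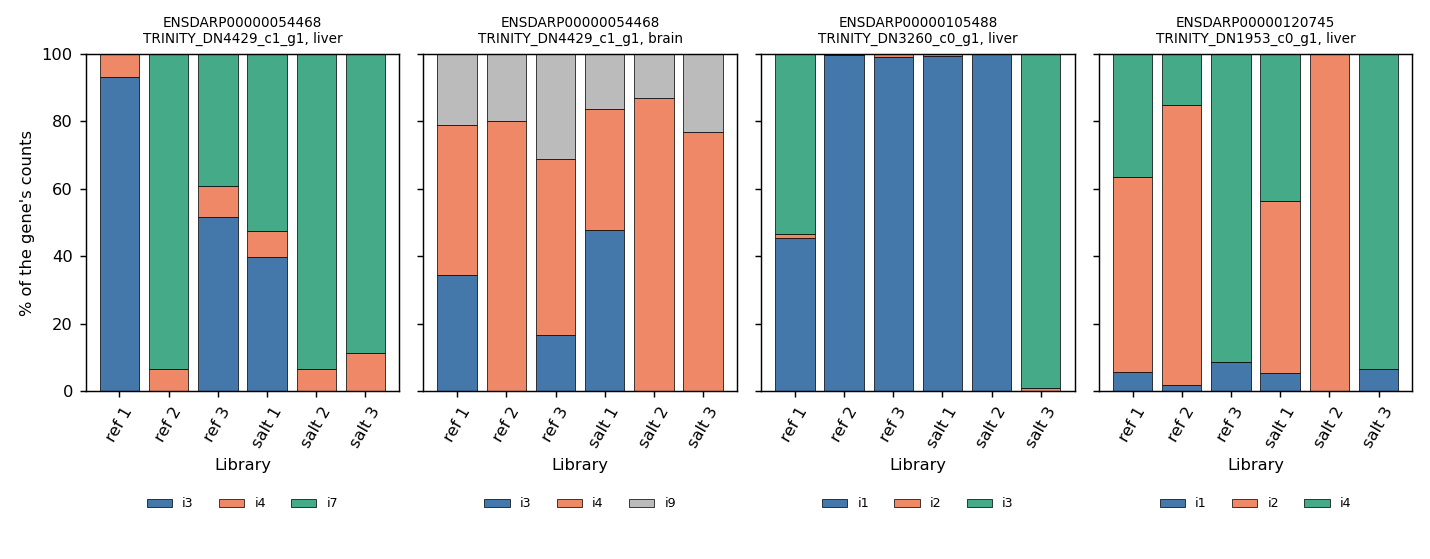
Share of each assembled transcript in its gene's counts (%, stacked to 100) in each library, for 3 liver-enriched genes in liver and for ENSDARP00000054468 also in brain. Transcript i3 of that gene is present in ref 1, ref 3 and salt 1 and absent in ref 2, salt 2 and salt 3 in both tissues.

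The shares of transcripts within a gene differed between fish. Of the 150 genes, 114 had 2 or more transcripts in liver, and in 41 of these the leading transcript was not the same in all 6 livers. The largest difference between livers in the share of a transcript had a median of 24.98 percentage points over the 114 genes, and in 24 genes it passed 50 points. Shares within a gene do not depend on the scaling between libraries. The counter is not known, so how reads shared by similar transcripts were assigned could not be checked.

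ENSDARP00000105488 (TRINITY_DN3260_c0_g1) was read as transcript i1 in 99.8% and 99.0% of its counts in liver reference 2 and 3, and in 99.5% and 100% in salt 1 and 2. In liver salt 3 transcript i1 had no count and i3 took 99.0%. Liver reference 1 held both, at 45.5% and 53.4%. The summed level of the gene ran from 154 to 484 CPM over the livers.

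ENSDARP00000054468 (TRINITY_DN4429_c1_g1) showed such differences in transcript shares in 2 tissues. In liver, transcript i3 took 93.1%, 0% and 51.6% of the counts in reference 1, 2 and 3 and 40.0%, 0% and 0% in salt 1, 2 and 3. In brain, i3 took 34.5%, 0% and 16.7% in reference and 47.8%, 0% and 0% in salt libraries, on totals of fewer counts. The fish with and without i3 were the same in both tissues, and both kinds occurred at both stations. The brain of each fish without i3 still held transcript i4, with 36, 94 and 50 counts.

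In ENSDARP00000120745 (TRINITY_DN1953_c0_g1), transcript i2 took 57.7%, 83.0% and 0% in reference and 50.9%, 100% and 0% in salt livers, and i4 took most of the rest. ENSDARP00000048549 (TRINITY_DN3585_c1_g1) was spread over 11 transcripts, of which i21 took 93.4% in liver salt 1 and at most 2.1% in the other 5 livers. In ENSDARP00000021632 (TRINITY_DN68515_c0_g1), transcript i7 took 76.4% of the counts in liver reference 3, the liver where the gene was abundant. The other livers had from 0 to 65 counts of i7, too few for a firm share.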

How the data were processed

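RNA was extracted with an RNeasy kit and made into TruSeq libraries, per the labels' protocols. The deposited tables hold raw counts per transcript of a de novo assembly, in a table per tissue; the submitters' processing notes list Trimmomatic and DESeq2, while the aligner, counter and assembly settings were not given in the sources used. A check of the counts found every deposited transcript at 1 CPM or more in 2 or more of its tissue's 6 libraries. Samples were grouped by title and matched to columns by library code.

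Counts were summed per assembled gene, whose first hit is that of its transcript with most liver counts; a transmembrane tag on any transcript excluded a gene. The genes, lists and tests were chosen with earlier results of these data known. Each tissue was fitted whole with edgeR 4.0.16 in R 4.3.3 (filterByExpr, TMM, quasi-likelihood F test of salt against reference, two-sided), with Benjamini-Hochberg adjustment over all genes of the tissue and a threshold of 0.05. The standard error is the size of the log2 fold change divided by the square root of F. DESeq2 1.42.0 was an alternative. Summed levels in brain and gills were compared by exact permutation tests (SciPy 1.17.1); the test planned for the liver sum is not reported, because the rule used those values. Only the edgeR fit was tried on simulated counts, drawn from the liver data. Its outcome is not given here, so no power stands behind the counts of 0 genes called. Intervals on counts of 0 use 3 counts and cover counting error only.

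Genes were named by rule: the 10 highest in liver, those whose stations did not overlap, the 5 most and 5 least variable, the 3 highest in brain and in gills, the 5 with the largest change in transcript share, and those at each limit. Members at an unadjusted p under 0.05 in brain and gills, and others marked so, were named after their values were seen. Replicate numbers belong to different fish at the 2 stations. No sequence or gene name is given, since none could be matched to the accessions.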

Additional observations from a re-analysis of the deposited data

Results flagged for a closer look

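ENSDARP00000118396 (TRINITY_DN3079_c0_g1), named after its values were seen, went opposite ways in brain and gills. In gills it had 0 counts in all 3 reference libraries and was at 1.16, 0.743 and 1.97 CPM in those labelled salt, a mean of 1.29 CPM. Every transcript in the gill table has at least 1 CPM in 2 or more libraries, and here those were salt 1 and the library labelled salt 3, whose label is doubted. The gene was thus listed in gills only through the group where it is high, so the contrast was partly fixed by the listing. In brain it was at 0.777, 1.53 and 2.95 CPM in reference and 0.452, 0 and 0.368 CPM in salt libraries, so every salt brain was lower. Only brain reference 2 and 3 reached the 1 CPM needed for listing, so the listing partly fixed the contrast in brain as well. In liver it was at 152, 266 and 168 CPM in reference and 494, 177 and 534 CPM in salt libraries, which overlapped. The difference between brain and gills was not tested, and both rest on few reads, 150 in brain and 73 in gills over all 6 libraries.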

How the results depend on the processing

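edgeR called 0 of the liver-enriched genes in liver with each alternative: RLE factors, totals outside the dominant hit without factors, no filter on low counts, robust dispersion, counts per transcript and leaving out each liver. Among all liver genes it called 0.15% (22 of 14750) without liver reference 1, 0.007% (1 of 14557) without reference 3, and 0% with the others. In brain and gills it called 0 of the liver-enriched genes, beside 0% of all genes, with each alternative run there. These included leaving out gill reference 1 and the gill library labelled salt 3. DESeq2 called 3 in liver, and from 1 (without liver salt 3) to 13 (without liver reference 2) when each liver was left out, with 9 without liver reference 1 and 4 without liver salt 2; beside them stood 1.07% of all genes without salt 3, 2.78% without reference 2, 5.55% without reference 1 and 2.29% without salt 2. At an unadjusted p under 0.05 edgeR had 3 to 19 genes in liver, 1 to 8 in brain and 2 to 4 in gills over left-out libraries. In liver these were 2.0% (without reference 3) beside 5.72% of all genes, and 12.7% (without reference 2) beside 7.57%. In brain they were 1.79% (without reference 3) beside 4.12%, and 14.3% (without salt 2) beside 5.12%. In gills the shares ran from 4.44% to 8.89%, and those over all gill genes from 0.32% to 3.43%. Leaving out livers with DESeq2, repeating the grouping on the TMM scale, the reading of transmembrane tags and first hits and the grouping distances were alternatives chosen after seeing the data. The median log2 fold change in liver ran from -0.63 to 0.16 over left-out livers with edgeR and from -0.59 to 0.15 with DESeq2; it turned positive only without liver reference 2, and the cause was not tested. The ratio of summed levels, salt to reference, ran from 0.409 to 0.543 in liver over left-out livers, and was 0.326 on full totals and 0.615 on the TMM scale. In brain it was 1.05 and ran from 0.889 (without brain salt 2) to 1.19, with 0.965 without brain reference 2; in gills it was 1.23 and ran from 0.970 (without gill salt 2) to 1.39. The median coefficient of variation was 0.827 on full totals, 0.648 on the TMM scale and 0.561 to 0.731 over left-out livers. Repeating the choice of genes kept 138 of 150 with a ratio of 10, 137 with 50, 146 with full totals, 142 with medians, 148 with a 2-fold rise limit, 141 to 149 over left-out livers, 145 with transmembrane tags read on the leading transcript and 147 with a zebrafish hit on any transcript. The largest group held 71 genes at a distance of 0.3 and 76 at 0.5, and 73 on the TMM scale. The signal peptide tag stood on 82.0% of leading transcripts. For the 9 genes whose stations did not overlap, 162 recomputed fold changes kept their direction, and 17 of them, all with DESeq2, passed the threshold. These genes were picked for stations apart in the same livers, so the kept direction was largely set by that choice and lends no support. By the fish codes, same-numbered salt and reference libraries come from different fish. Their deviations from the group means had r of 0.04, -0.01 and 0.04 in liver and -0.08, -0.09 and 0.04 in brain. In gills r was -0.37, 0.21 and -0.003. With the replicate block 0 genes were called in any tissue and the liver median was -0.13. Leaving out a library leaves 2 in a group. Levels near 1 CPM in brain and gills rest on few reads and limit what can be seen there.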
